A study of Mus musculus with 9 samples.

Results

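The 9 genes described here encode 3 families of transcription factors that act in fat cell formation: the peroxisome proliferator-activated receptors Pparg, Ppara and Ppard, the CCAAT/enhancer-binding proteins Cebpa, Cebpb and Cebpd, and the retinoid X receptors Rxra, Rxrb and Rxrg. They were chosen by symbol from the 30915 genes of an expression table, with earlier results of these data known, and all 9 were in it. The table covered brown adipose tissue (BAT), a fat that makes heat, from embryos of C57Bl6J mice of genotype WT at E14.5, E15.5 and E16.5 (E counts days of gestation), with mice and embryos left untreated. Each stage had 3 MoGene-2_0-st arrays, and each array held an independent preparation that pooled the BAT of 3 embryos, so the spread between arrays is one between pools and not between single embryos.

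PPARs are nuclear receptors that bind fatty acids and their derivatives, and they act on DNA as pairs with an RXR, the partner that binds 9-cis retinoic acid. PPARγ is required for fat cell formation, PPARα drives genes of fatty acid oxidation in liver and brown fat, and PPARδ has a broad role in lipid use. In cultured preadipocytes C/EBPβ and C/EBPδ appear early and precede C/EBPα and PPARγ, which then maintain each other's expression.

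RefSeq promoters of assembly GRCm38.p6 held 8 of the 9 members, without Cebpd. The 250 bases before a start are shown for the 4 members that rose most over both days, Ppara, Cebpb, Rxrg and Cebpa, and for Pparg, which has a downstream promoter for the fat-selective form PPARγ2. Pparg had 3 listed starts and the most downstream is shown. Rxrg had 2 and the second is shown. Capitals mark matches, on either strand, to a C/EBP motif (TTGCNNAA), the nuclear receptor core site (AGGTCA), the core of the cyclic AMP response element (TGACG) or a TATA box (TATAAA).
Pparg, chr6:115421816-115422065, plus strand: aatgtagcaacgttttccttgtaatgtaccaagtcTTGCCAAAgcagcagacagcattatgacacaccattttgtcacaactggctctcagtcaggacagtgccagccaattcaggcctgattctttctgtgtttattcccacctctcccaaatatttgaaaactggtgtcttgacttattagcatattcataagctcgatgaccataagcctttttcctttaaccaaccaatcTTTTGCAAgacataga
Ppara, chr15:85735526-85735775, plus strand: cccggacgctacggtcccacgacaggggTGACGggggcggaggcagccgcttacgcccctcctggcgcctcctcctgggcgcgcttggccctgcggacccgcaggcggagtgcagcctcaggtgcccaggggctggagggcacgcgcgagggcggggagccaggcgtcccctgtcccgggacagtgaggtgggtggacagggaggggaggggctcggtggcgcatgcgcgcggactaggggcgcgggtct
Cebpa, chr7:35119043-35119292, plus strand: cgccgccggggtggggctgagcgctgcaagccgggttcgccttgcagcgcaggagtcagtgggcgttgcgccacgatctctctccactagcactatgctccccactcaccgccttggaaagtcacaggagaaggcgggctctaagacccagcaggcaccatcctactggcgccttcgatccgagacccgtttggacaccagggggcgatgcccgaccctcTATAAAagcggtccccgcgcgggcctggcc
Cebpb, chr2:167688665-167688914, plus strand: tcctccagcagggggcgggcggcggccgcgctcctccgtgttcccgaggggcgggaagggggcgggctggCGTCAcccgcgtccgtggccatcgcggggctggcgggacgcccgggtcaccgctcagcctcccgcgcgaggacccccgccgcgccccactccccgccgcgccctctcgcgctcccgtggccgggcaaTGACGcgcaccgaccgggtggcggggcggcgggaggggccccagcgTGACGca
Rxrg, chr1:167618015-167618264, plus strand: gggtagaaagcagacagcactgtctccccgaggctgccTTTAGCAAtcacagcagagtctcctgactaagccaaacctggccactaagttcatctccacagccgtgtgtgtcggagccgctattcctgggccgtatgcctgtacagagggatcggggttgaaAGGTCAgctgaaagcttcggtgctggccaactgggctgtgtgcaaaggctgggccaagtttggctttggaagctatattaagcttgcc
The Pparg window held 2 matches to the C/EBP motif, at 215 to 208 and 16 to 9 bases before the start. The windows of Pparg starts 1 and 2, not shown, held no C/EBP match. Each held 1 core site, and that of start 2 also TATAAA on the opposite strand. The Cebpb window held 3 matches to TGACG and the Ppara window held 1. The Cebpa window held TATAAA at 30 to 25 bases before the start. The Rxrg window held 1 C/EBP match and 1 core site, and the window of its first start, not shown, held no match to any of these motifs. Of 32851 RefSeq promoter windows of 250 bases, 9.56% held the C/EBP motif, 14% the core site, 17.8% TGACG and 12.4% TATAAA. The 2 core sites of a PPAR-RXR element, written as AGGTCA, any base and AGGTCA again, stood in 0.0335% of windows and in none of the members' windows. The array gave 1 value per symbol, so the starts and isoforms of a gene could not be told apart.

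Values are log2 expression as deposited, and ran from 2.34 to 13.1 over all genes. E16.5 replicate 2 stood apart, with an array median of 5.05 where the other 8 arrays had 4.79 to 4.85. In 1469 smell and pheromone receptor genes, taken as a stand-in for background, its median was 3.66, where the others had 3.16 to 3.29. The mean of 8 members lay above that of all 1469 background genes and the mean of Cebpd above that of 1453. The median of all genes moved by 0.14 in log2 over both days, and by 0.0068 after quantile normalization. All 14 brown adipocyte markers rose over both days, and the log2 of their summed level was 12.25 to 12.45 at E14.5, 13.73 to 13.75 at E15.5 and 14.73 to 14.81 at E16.5. Of 17 skeletal muscle markers 16 fell, with summed levels of 14.28 to 14.32, 13.24 to 13.53 and 13.03 to 13.49, and of 13 mesenchymal progenitor markers 10 fell and 2 rose, with 14.62 to 14.68, 14.15 to 14.24 and 13.77 to 13.89. Over both days 22% of all genes rose and 17.4% fell. By its mean over the 9 arrays, no marker of these 3 lists lay at or below the 95th percentile of the background genes (4.38). At E14.5 alone, the brown adipocyte markers Dio2 and Elovl3 had means below it, of 3.95 and 4.11. These are bulk samples, so a change in the share of a cell type and a change of RNA per cell cannot be told apart, and the part of these markers in the results below was not tested.

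Of the 9 genes, 7 rose from E14.5 to E16.5, 0 fell and 2, Cebpd and Rxra, did not pass the test (limma, Benjamini-Hochberg adjusted over 30915 genes). Over the same days 22% of all genes rose and 17.4% fell, 39.4% in all. On the first day, E14.5 to E15.5, 6 members rose and 0 fell, against 9.07% and 11.2% of all genes (20.3% in all). On the second day, E15.5 to E16.5, 7 rose and 0 fell, against 11.2% and 8.46% (19.7% in all). The median change of the 9 members was 0.39, 0.46 and 0.85 in log2 on the first day, the second day and over both days, and that of all genes was 0.03, 0.10 and 0.14. The second-day count was 3 without E15.5 replicate 1 and 3 without E15.5 replicate 3. By the F-test over the 3 stages 7 members passed, against 35.1% of all genes, and 7 passed under each of the 16 alternative fits.

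**Figure D1:**
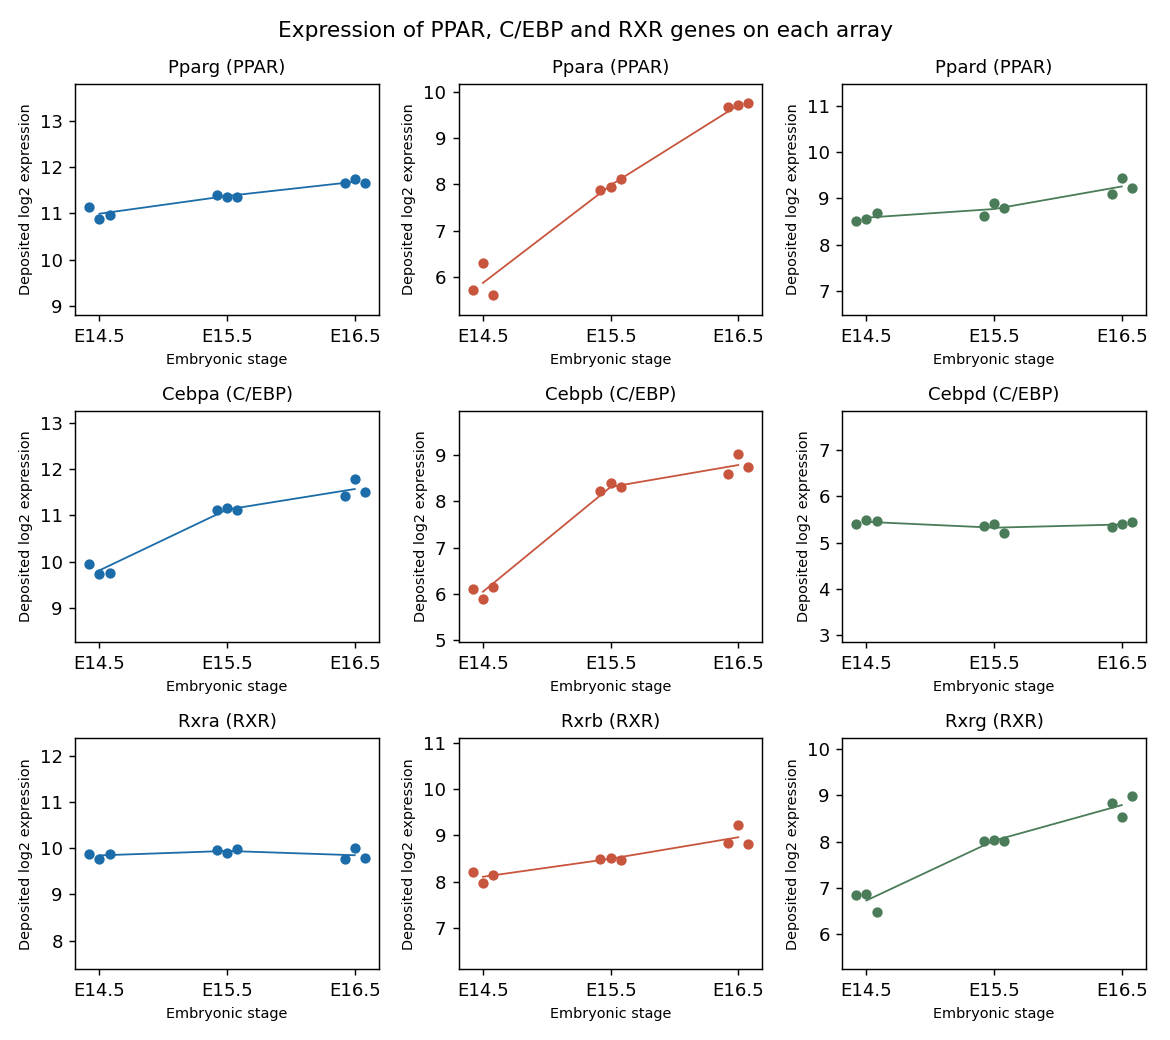
Log2 expression of the 9 members at E14.5, E15.5 and E16.5, 1 panel per gene; points are arrays, the line joins the stage means, and each panel spans 5 log2 units. Ppara climbs from 5.87 to 9.71 and Cebpb from 6.04 to 8.79, while Cebpd ends at 5.39 from 5.45 and Rxra at 9.85 from 9.84.

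Among the PPARs, Ppara moved most. Its arrays read 5.71, 6.30 and 5.60 at E14.5, 7.88, 7.94 and 8.12 at E15.5 and 9.67, 9.71 and 9.75 at E16.5, so the stages did not overlap. It rose 4.32-fold on the first day (log2 change 2.11 ± 0.16 SE, n = 3 arrays per stage, limma adjusted p = 4.10e-06) and 3.31-fold on the second (1.73 ± 0.16, limma adjusted p = 3.07e-05). Over both days the rise was 14.3-fold (3.84 ± 0.16, limma adjusted p = 1.32e-08), which ranked 42 from the top among all genes.

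Pparg, the receptor that fat cell formation requires, read 11.13, 10.87 and 10.97 at E14.5. It read 11.40, 11.36 and 11.36 at E15.5 and 11.66, 11.73 and 11.65 at E16.5. The stages did not overlap, and the steps were small: 1.31-fold on the first day (0.38 ± 0.08, limma adjusted p = 0.00716) and 1.62-fold over both days (0.69 ± 0.08, limma adjusted p = 5.46e-05). The second-day step of 0.31 ± 0.08 (limma adjusted p = 0.0256) was 0.15 after quantile normalization (limma adjusted p = 0.156) and 0.24 with each array centred on its median (limma adjusted p = 0.0727). It also lost its call without E15.5 replicate 1 (0.32, limma adjusted p = 0.0686), replicate 2 (0.30, limma adjusted p = 0.0883) or replicate 3 (0.30, limma adjusted p = 0.0908).

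Ppard read 8.51, 8.56 and 8.67 at E14.5, 8.62, 8.89 and 8.79 at E15.5 and 9.09, 9.44 and 9.23 at E16.5. The arrays of the first 2 stages overlapped, and the first-day change was 0.19 ± 0.11 (limma adjusted p = 0.321, 95% interval -0.05 to 0.43). The E16.5 arrays lay above all others: Ppard rose 1.4-fold on the second day (0.49 ± 0.11, limma adjusted p = 0.00869) and 1.6-fold over both (0.68 ± 0.11, limma adjusted p = 4.53e-04).

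Cebpa and Cebpb rose sharply on the first day and less on the second. Cebpb, the early C/EBP of adipogenesis, read 6.11, 5.88 and 6.15 at E14.5, 8.22, 8.40 and 8.31 at E15.5 and 8.58, 9.03 and 8.74 at E16.5, with no overlap between stages. It rose 4.81-fold on the first day (2.27 ± 0.12, limma adjusted p = 5.10e-07), 1.39-fold on the second (0.47 ± 0.12, limma adjusted p = 0.0187) and 6.69-fold over both days (2.74 ± 0.12, limma adjusted p = 2.22e-08). Cebpa, the later partner of PPARγ, read 9.95, 9.73 and 9.76, then 11.11, 11.16 and 11.11, then 11.41, 11.79 and 11.51, and its stages did not overlap. It rose 2.48-fold on the first day (1.31 ± 0.11, limma adjusted p = 7.94e-06), 1.36-fold on the second (0.44 ± 0.11, limma adjusted p = 0.0137) and 3.38-fold over both (1.76 ± 0.11, limma adjusted p = 2.27e-07). The second-day calls ended without E15.5 replicate 1 (Cebpa 0.44, limma adjusted p = 0.0516, and Cebpb 0.43, limma adjusted p = 0.0804) or E15.5 replicate 3 (0.44 and 0.47).

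Cebpd, the other early C/EBP, did not pass the test. Its arrays read 5.39, 5.48 and 5.47 at E14.5, 5.35, 5.40 and 5.21 at E15.5 and 5.34, 5.39 and 5.44 at E16.5, and the groups overlapped. The both-day change was -0.06 ± 0.08 (limma adjusted p = 0.564, 95% interval -0.24 to 0.12).

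The 3 RXR genes changed by unequal amounts. Rxrg, the member with the narrowest tissue range in adults, read 6.84, 6.86 and 6.49 at E14.5, 8.02, 8.03 and 8.02 at E15.5 and 8.84, 8.54 and 8.99 at E16.5. It rose 2.45-fold on the first day (1.30 ± 0.13 in log2, limma adjusted p = 3.24e-05), 1.69-fold on the second (0.76 ± 0.13, limma adjusted p = 0.00178) and 4.16-fold over both (2.06 ± 0.13, limma adjusted p = 2.98e-07). Rxrb, broadly expressed, read 8.20, 7.98 and 8.14, then 8.50, 8.52 and 8.47, then 8.83, 9.23 and 8.82, and rose 1.8-fold over both days (0.85 ± 0.12, limma adjusted p = 1.21e-04). Both genes had stages that did not overlap. The first-day step of Rxrb, 0.39 ± 0.12 (limma adjusted p = 0.0353), lost its call without any single one of the 3 E14.5 or 3 E15.5 arrays, where the change was 0.33 to 0.43. The second-day step, 0.46 ± 0.12 (limma adjusted p = 0.0155), lost it without E15.5 replicate 1 (0.46) or 3 (0.45).

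Rxra, the RXR best known as the partner of PPARγ in fat cells, did not pass the test in any comparison. Its arrays read 9.88, 9.77 and 9.88 at E14.5, 9.95, 9.89 and 9.98 at E15.5 and 9.76, 10 and 9.78 at E16.5. The E15.5 arrays lay just above those of E14.5, and the E16.5 arrays overlapped both. The both-day change was 0.01 ± 0.09 (limma adjusted p = 0.933, 95% interval -0.19 to 0.21), and its sign turned to -0.09 after quantile normalization, -0.05 after median centring and -0.07 without E16.5 replicate 2. Less the median of all genes, the 7 called members moved by 0.54 to 3.70 over both days, and after quantile normalization by 0.53 to 3.81.

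**Figure D2:**
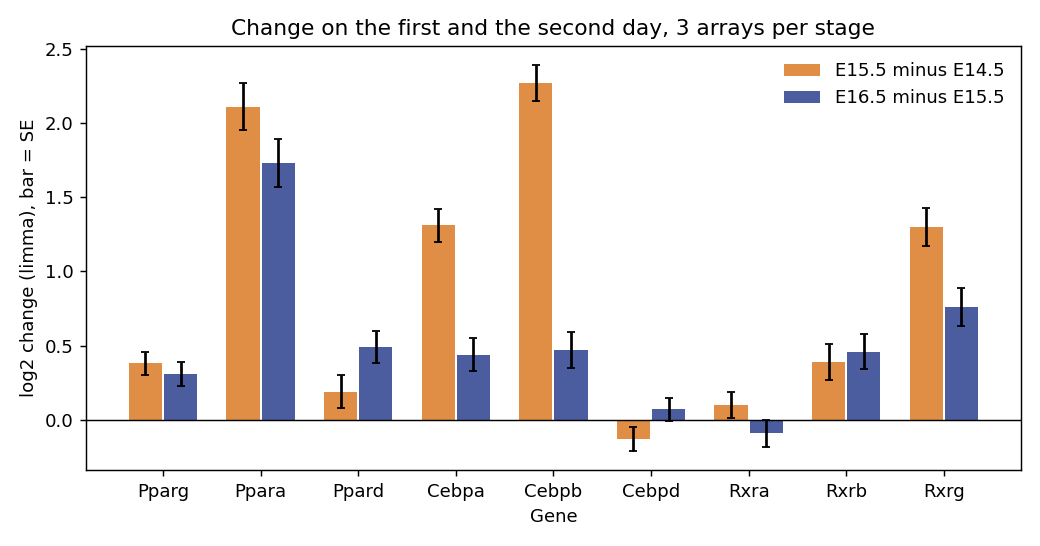
Log2 change of each member on the first day and on the second day; bars are limma estimates and error bars are 1 SE, with 3 arrays per stage. Cebpa and Cebpb have first-day bars of 1.31 and 2.27 and second-day bars of 0.44 and 0.47, while Ppara has bars of 2.11 and 1.73.

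The first and second days were compared within the same fit. The second-day change was smaller than the first-day change for 2 members, Cebpb (-1.79 ± 0.21, limma adjusted p = 0.001) and Cebpa (-0.87 ± 0.19, limma adjusted p = 0.0225), against 2.41% of all genes called in that direction. Of the both-day rise, 82.7% for Cebpb and 74.8% for Cebpa fell on the first day, against 63% for Rxrg, 55.4% for Pparg, 55% for Ppara, 45.5% for Rxrb and 28% for Ppard. The difference did not pass the test for these 5, with values from -0.53 to 0.30 (limma adjusted p of 0.278 for Rxrg and 0.557 for Ppard, 0.622 for Ppara). The Cebpa call ended without E14.5 replicate 2 or 3 or without any E15.5 array, at -0.88 to -0.83 (limma adjusted p from 0.061 to 0.121), and the Cebpb call held without each of the 9 arrays (-1.92 to -1.69).

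Family members were also compared as the log2 difference of 2 genes on 1 array, and its change over the stages was tested by an exact permutation of the 9 arrays over every allocation to the 3 stages (9 pairs, smallest possible p 0.00357, adjusted over the pairs). The level of one probe set against another is not interpretable, and only the change is. The difference Ppara less Ppard changed by 3.16 over both days, so Ppara rose 8.96-fold relative to Ppard (exact permutation p = 0.00357, adjusted 0.00536). Ppara rose 8.85-fold relative to Pparg, at -3.15 in the difference Pparg less Ppara (exact permutation p = 0.00357, adjusted 0.00536). Pparg less Ppard was 2.41 ± 0.18, 2.61 ± 0.15 and 2.43 ± 0.14 (SD, n = 3) at the 3 stages, so the change was 0.02 and the exact permutation p 0.357 (adjusted 0.357).

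Cebpb rose 1.98-fold relative to Cebpa. The difference Cebpa less Cebpb was 3.77 ± 0.13, 2.81 ± 0.07 and 2.78 ± 0.04 (SD, n = 3) at the 3 stages, a change of -0.95 on the first day and -0.03 on the second (exact permutation p = 0.025, adjusted 0.0281). Against Cebpd, Cebpb rose 6.97-fold and Cebpa 3.52-fold. Among RXRs, Rxrg rose 4.13-fold relative to Rxra and 2.3-fold relative to Rxrb, and Rxrb rose 1.79-fold relative to Rxra. Their exact permutation p was 0.00357 against Rxra (adjusted 0.00536) and 0.0143 for Rxrb with Rxrg (adjusted 0.0184).

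**Figure D3:**
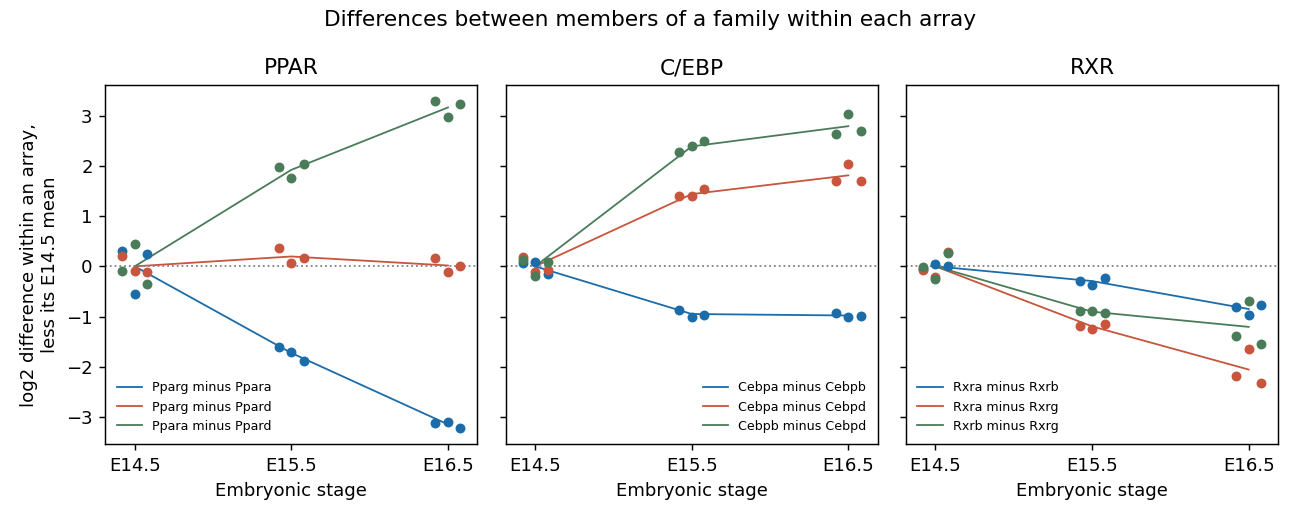
Within-array log2 difference of 2 members of a family less its E14.5 mean, by stage; points are arrays. Ppara less Ppard ends at 3.16 and Pparg less Ppara at -3.15, while Pparg less Ppard ends at 0.02.

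Genes most like each member were sought by Pearson's r over the 9 arrays among 8875 genes with function-bearing symbols that changed by the F-test. All such correlations share the stage course, so they describe shape and are given without a p. The named genes were often a few of many alike. An r over 0.99 was reached by 117 genes for Cebpa, 88 for Cebpb and 83 for Ppara. For Rxrb it was 23 genes, for Rxrg 22, for Pparg 11 and for Ppard 1. Closest to Ppara were Pfkfb1, an enzyme setting fructose 2,6-bisphosphate (0.9969), Mat2b (0.9965) and lactate dehydrogenase B, Ldhb (0.9964). Closest to Pparg were Pdcd4 (0.9958), Usmg5, a small ATP synthase protein (0.9938), and Ggact (0.9934). Closest to Ppard were Plppr4 (0.9925), the peroxisomal thioesterase Acot8 (0.9885) and Rab5b (0.9878).

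Closest to Cebpa were the mitochondrial ribosomal protein gene Mrps5 (0.9983) and Arxes2 (0.9975). Closest to Cebpb were the amino acid transporter Slc16a10 (0.9981), Mrap, which helps the ACTH receptor reach the surface (0.9979), and Polrmt, the mitochondrial RNA polymerase (0.9975). Rxrg was matched by Rab3d (0.9971), the cytosolic malate dehydrogenase Mdh1 (0.9962) and Csad (0.9948), and Rxrb by Cgrrf1 (0.9956), Spg21 (0.9954) and Chac2 (0.9953). For Cebpd and Rxra no neighbours are given, because the search covered changed genes alone and these 2 members did not pass the test. Between members, r was 0.99 for Cebpa with Cebpb and 0.98 for Ppara with Rxrg.

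The other genes of the pathway were described through 11 lists, of which targets of the members moved most uniformly. Of 29 adipocyte targets of PPARγ, 28 rose and 0 fell over both days (1 fell after quantile normalization), with a median log2 change of 2.26 against 0.14 for all genes. On the first day 25 rose and 0 fell, with a median of 1.33. Cidea, a lipid droplet protein abundant in brown fat, rose 83.2-fold (6.38 ± 0.11), Cidec, which enlarges lipid droplets, 73.8-fold (6.21 ± 0.08), the droplet coat perilipin Plin1 44.4-fold (5.47 ± 0.09) and the triglyceride lipase Pnpla2 20.9-fold (4.39 ± 0.09). The target that did not pass, Olr1, an oxidised LDL receptor named after its value was seen, had -0.15. In this list the second-day change was smaller than the first-day change for 14 genes and larger for 2, beside 2.41% and 2.79% of all genes, and the smaller count was 12 to 16 under the alternatives.

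Of 12 adipocyte genes bound or activated by C/EBPα, 11 rose and 0 fell over both days, with a median of 2.11. Adig, a small adipocyte protein, had a mean of 3.79 at E14.5, below the 95th percentile of the background genes (4.38), and 7.13 and 9.60 at E15.5 and E16.5, so it rose but no exact fold is given. The hormone resistin, Retn, rose 25.2-fold (4.66 ± 0.10), adipsin, Cfd, 18.1-fold (4.18 ± 0.10) and adiponectin, Adipoq, 7.19-fold (2.85 ± 0.11). The gene that did not pass, the fatty acid synthesis enzyme Acaca, had -0.08 and was also named after its value was seen. Of 25 measured fatty acid oxidation targets of PPARα, 18 rose and 1 fell, with a median of 1.69, and 2 fell without E16.5 replicate 3. Pex11a, which divides peroxisomes, rose 13.8-fold (3.79 ± 0.09), Pdk4, which blocks pyruvate entry into mitochondria, 11.2-fold (3.49 ± 0.09), the carnitine carrier Slc25a20 5.99-fold (2.58 ± 0.10) and the dehydrogenase Acadm 5.62-fold (2.49 ± 0.09). These lists share some genes, such as Adipoq and Fabp4. The brown adipocyte markers Ucp1, Cidea, Adipoq, Fabp4, Plin1 and Plin5 are also among the PPARγ targets. Of the same markers, Ppargc1a and Prdm16 are also listed as coactivators and Ebf2 as an upstream transcription factor. The counts of markers and of these lists are therefore not separate observations.

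**Figure D4:**
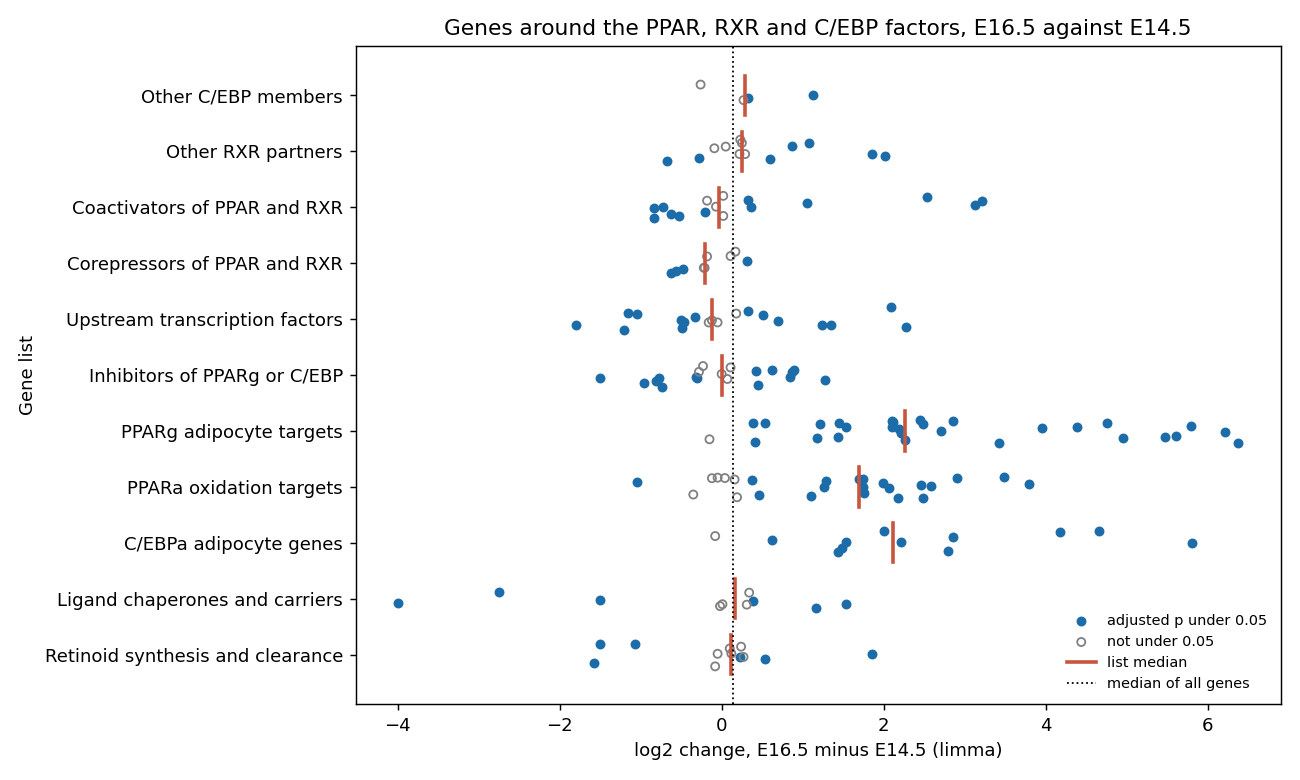
Log2 change over both days of each measured gene in 11 pathway lists; filled points passed limma at an adjusted p of 0.05, the red mark is the list median and the dotted line the median of all genes. Targets of the members lie mostly right of the line, with medians of 2.26, 2.11 and 1.69, and lists of cofactors lie around it.

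The counts of the remaining lists, like those of the target lists above, are to be read against 22% of all genes that rose and 17.4% that fell over both days. Of 16 coactivators of PPAR and RXR, 6 rose and 6 fell, with a median of -0.03. Ppargc1a, the PGC-1α coactivator of mitochondrial biogenesis, rose 9.26-fold (3.21 ± 0.09), Lpin1, a phosphatidate phosphatase that also acts with PGC-1α, 8.74-fold (3.13 ± 0.11), Ppargc1b 5.79-fold (2.53 ± 0.11) and Prdm16, a brown fat determinant, 2.07-fold (1.05 ± 0.11). The 6 coactivators that fell, outside the naming rule, were Carm1 and Kmt2d (each by 0.83), Ncoa3 (0.72), Crebbp (0.63), Ncoa6 (0.53) and Ep300 (0.21). Of 9 corepressors 1 rose and 3 fell, with a median of -0.21. Among them Nrip1, known as RIP140, fell by 0.56 ± 0.08 and Tbl1x by 0.48 ± 0.09, while the deacetylase Hdac3 rose 1.24-fold (0.31 ± 0.09). The corepressor counts were 6 lower without E16.5 replicate 2 or after quantile normalization, and 0 higher without any one of the E14.5 arrays.

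Of 13 other nuclear receptors that pair with RXR, 5 rose and 2 fell, with a median of 0.25. The liver X receptors Nr1h3 and Nr1h2 rose 4.06-fold (2.02 ± 0.12) and 2.12-fold (1.08 ± 0.11), the thyroid hormone receptor Thrb rose 3.61-fold (1.85 ± 0.11), and the retinoic acid receptor Rarg fell by 0.68 ± 0.08. Outside the naming rule, Rarb and Nr4a1 rose 1.83-fold (0.87 ± 0.12) and 1.52-fold (0.60 ± 0.11), and Rara fell by 0.28 ± 0.09. The rising count was 8 without E16.5 replicate 1, and the falling count 1 when any E14.5 array, or replicate 1 or 3 of E15.5, was left out. Of the 4 other C/EBP family genes 2 rose. Ddit3, a stress-induced C/EBP partner, rose 2.19-fold (1.13 ± 0.13) and Cebpe, known from granulocytes, by 0.32 ± 0.09 in log2. The rising count was 1 without E14.5 replicate 2, after quantile normalization or with median centring, and 1 gene fell without E16.5 replicate 2. Cebpe had means of 4.44, 4.63 and 4.76 at E14.5, E15.5 and E16.5. These lay little above the background cutoff used for Adig (4.38), so no exact fold is given. The array medians of the background genes were also higher at E16.5 (3.28 to 3.66) than at E14.5 (3.16 to 3.18). Whether Cebpe rose beyond the background was not tested.

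Of 19 transcription factors that act before Pparg and Cebpa in adipogenesis, 7 rose and 8 fell, with a median of -0.12. Bcl6 rose 4.84-fold (2.27 ± 0.08), Srebf1, the lipogenic factor SREBP-1, 4.24-fold (2.09 ± 0.10) and Klf15 2.55-fold (1.35 ± 0.09), whereas Klf4 fell by 1.80 ± 0.11. Of 19 inhibitors of PPARγ or C/EBP action 7 rose and 7 fell: Foxo1 rose 2.41-fold (1.27 ± 0.10) and Trib1 1.85-fold (0.89 ± 0.07), whereas the Wnt pathway factor Tcf7l2 changed by -1.50 ± 0.09 and Klf3 by -0.96 ± 0.09.

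Retinoid genes set the supply of RXR and RAR ligands. Of 12 genes of retinoid synthesis and clearance 3 rose and 3 fell, shares near those of all genes (22% and 17.4%), with a median of 0.11, and the rising count was 1 without E14.5 replicate 3. Dhrs3, a retinaldehyde reductase, rose 3.6-fold (1.85 ± 0.10), while Aldh1a3, which makes retinoic acid, fell by 1.57 ± 0.12 and the retinol uptake receptor Stra6 by 1.07 ± 0.16. Of 10 lipid chaperones and ligand carriers 3 rose and 3 fell. The retinoic acid-binding protein Crabp2 fell to 0.0624 of its E14.5 level. Its paralog Crabp1 changed by -2.75 ± 0.14 in log2, and Fabp4, the adipocyte fatty acid carrier, rose 2.91-fold (1.54 ± 0.09). Outside the naming rule, Rbp4 and Fabp5 rose 2.24-fold and 1.31-fold, and Aldh1a1 and Rdh10 of the retinoid list 1.46-fold and 1.17-fold. The rising count of the carriers was 5 with each array centred on its median.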

How the data were processed

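The authors deposited log2 expression values, 1 per gene symbol, for which the submitters' processing notes name Partek 7.0 and RMA. RNA was extracted with the RNeasy Microkit and labelled with the WT PLUS reagents, per the labels' protocols. How probes were summarised to symbols, and the build, are not given in the sources used here. limma 3.58.1 (R 4.3.3) was fitted to the 9 arrays together, with no term but stage (6 residual and 4.59 prior degrees of freedom, prior SD 0.129), and p-values were two-sided and adjusted over 30915 genes at a threshold of 0.05. The number of arrays limits the precision. Alternatives were quantile normalization, median centring, a filter on dim genes, other variance priors, array weights, fewer arrays, a replicate block and leaving out each array. The fit was tested on simulated data. The 9 members, the 19 lists (11 pathway, 8 marker) and the tests were chosen with earlier results of these data known. Members and lists together had 281 entries, of which 2 were not in the table and 1 was matched by an older symbol. All members were named, and of each list up to 4 genes with the smallest F-test p. Genes near a member were the 3 with the highest r among genes that changed by the F-test. Replicate numbers showed no sign of pairing the arrays. Same-numbered arrays had residual correlations of -0.168 to 0.107 and differently numbered arrays -0.145 to 0.143. Such correlations cannot show that no pairing exists. Some genes that these rules would name are not reported here.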

Additional observations from a re-analysis of the deposited data

Results flagged for a closer look

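For 2 members the second-day change differed from the first-day change by a test of the difference itself in limma. The difference, second day less first day, was -1.79 in log2 for Cebpb and -0.87 for Cebpa. Both genes rose on both days, and every array of a later stage lay above every array of an earlier one.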

How the results depend on the processing

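Over 36 member changes in the 4 comparisons, 580 of 603 alternative values kept their side of the threshold and 23 lost their call. Of the called changes 0 reversed, and 6 results had any loss. A change called in neither fit could turn its sign, as Rxra over both days did (0.01, and -0.09 after quantile normalization). Rxrb on the first day was 0.39 with the replicate block (limma adjusted p = 0.0555) and 0.33 to 0.43 leaving out 1 array. The replicate block changed no other member call, and the numbers showed no sign of pairing the arrays. Pparg on the second day was 0.24 with median centring, 0.15 after quantile normalization and 0.28 to 0.32 leaving out 1 array, and lost its call without each of the 3 E15.5 arrays. Leaving out 1 array gave 0.33 to 0.52 for Cebpa, 0.35 to 0.58 for Cebpb and 0.33 to 0.53 for Rxrb on the second day (calls lost without E15.5 replicate 1 or 3), and -0.98 to -0.79 for Cebpa between days. Members higher on the second day were 3 to 7 and members lower between days 1 to 2. All 90 alternative values of the within-family differences kept their side of the threshold, and no called difference turned its sign. The both-day change of the uncalled difference Pparg less Ppard ran from -0.06 to 0.12 leaving out 1 array. For the within-family differences, all alternatives but those without E16.5 replicate 2 were chosen after seeing the data. Genes higher on the first day (2803) were 4964 with array weights, 4546 on the arrays of both stages alone and 2162 to 4413 leaving out 1 array. Genes lower on the second day (2615) were 3929 with array weights, 4039 with median centring, 3975 after quantile normalization and 1899 to 4196 leaving out 1 array. Between days, genes higher (864) were 1871 with array weights and 286 to 1548 leaving out 1 array, and genes lower (746) were 1954, 1345 and 1457 with array weights, median centring and quantile normalization, and 320 to 1813 leaving out 1 array. Causes were not tested.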

Other observations

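Other cell types than those in the results also had markers on the arrays. Over both days 9 of 13 macrophage markers and 5 of 12 neuron and Schwann cell markers fell and 0 of either rose (1 of the latter rose without E16.5 replicate 3). These counts, and those of the lists that follow, stand beside 22% of all genes that rose and 17.4% that fell. The log2 of the summed level of the macrophage list went from 12.00 to 12.12 at E14.5 to 11.39 to 11.66 at E16.5, and that of the neuron and Schwann cell list from 10.25 to 10.34 to 9.24 to 9.48. Of 12 endothelial markers 4 rose and 3 fell (2 rose without E14.5 replicate 3), with 13.41 to 13.44 at E14.5 and 13.40 to 13.54 at E16.5. Of 11 erythroid markers 4 rose and 3 fell (5 fell without E16.5 replicate 2). Of 10 liver markers 3 rose (1 without E14.5 replicate 2). By their mean over the 9 arrays, 6 of the 10 lay at or below the 95th percentile of the smell and pheromone receptor genes taken as background.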
